A study of Danio rerio with 6 samples.

Results

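The genes described here are those of 3 related signalling pathways, FGF, BMP and TGF-beta. They were picked by symbol from the platform annotation: all probe sets with a single gene symbol beginning with fgf, spry, spred, dusp6, bmp, smad, gdf, tgfb, acvr, chrd, nog or inhb, or reading id1, id2a, id2b or id3. This gave 67 of 8793 named genes, with 87 of 15502 tested probe sets. Transcript levels had been measured on 1-colour Affymetrix zebrafish arrays in RNA from pooled whole wild-type AB embryos at 36 h post fertilisation. The exposed embryos had 5 µM 11,12-EET between 24 and 36 h, and the others had DMSO. This EET is a lipid mediator, formed when a cytochrome P450 oxidises arachidonic acid. There were 3 EET arrays and 3 DMSO arrays. All embryos had been dechorionated and came from the same AB strain, and 25 were used for each treatment. The labels call the arrays biological replicates without saying whether the pools came from separate clutches. The p-values thus set the group difference against the spread between these pools, which may be technical.

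FGFs are secreted ligands that bind receptor tyrosine kinases and switch on the Ras and ERK kinase cascade, which in turn induces its own inhibitors, the Sprouty and Spred proteins and the ERK phosphatase Dusp6. BMPs, GDFs, activins and TGF-beta ligands bind paired type I and type II serine/threonine kinase receptors, which phosphorylate Smad proteins that then enter the nucleus. BMP signals induce the Id genes, and secreted proteins such as Chordin and Noggin hold BMPs away from their receptors. In the zebrafish embryo these pathways pattern the body axis, the brain boundaries, the heart, the fin buds and the eye.

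The question was whether transcripts of these pathways differed between EET and DMSO embryos. No member passed: limma called 0 of the 87 probe sets at an adjusted p under 0.05, where 0% of all 15502 were called. The smallest adjusted p of a member was 0.930. At an unadjusted p under 0.05 there were 2 members, or 2.3%, against 5.27% of all tested probe sets. These were the activin subunit gene inhbb, lower in EET, and a dim probe set of the Sprouty gene spry2, higher in EET. In limma with trended robust variances the count was 2 as well, against 5.53% of all tested probe sets. There the 2 were inhbb and bmp2b (unadjusted p = 0.0103 and 0.0489, limma), without spry2. With 1 array left out the count was 1 without DMSO replicate 2, 4 without EET replicate 1 or EET replicate 3, and 3 in the other cases. The count was also 4 with array weights or the replicate number as a block. These 4 are 4.6% of members, against 6.64% of all tested probe sets with array weights and 5.37% with the block. With 1 array left out, 1.15% to 4.6% of members stood against 4.35% to 6.35% of all tested probe sets.

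All values below are levels on the log2 scale or differences of such levels, EET minus DMSO, with the SE from limma. The 87 probe sets had a median difference of 0.031, where all tested probe sets had a median of -0.0023. A mean difference above 0 was found in 50 of the 87 (57.5%), against 49.5% of all tested probe sets, and in 27 of the 41 brighter ones described next, against 49.9% of the brighter probe sets. Probe sets at or above the median level, 4.81, are called brighter here. These 7751 brighter probe sets held 41 members, for 35 genes, with a median SD between replicates of 0.145. The 46 dimmer members had a median SD of 0.729 and are not known to be above background. In whole-embryo RNA, fewer cells of a type and less RNA per cell cannot be told apart.

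Among the 41 brighter members the differences ran from -0.34 to 0.29, with a median of 0.034 and a median size of 0.104, where the brighter probe sets as a whole had a median size of 0.097. The 95% interval of the difference lay within 1.5-fold in either direction for 34 of the 41 (82.9%), against 77.3% of all brighter probe sets. For all 41 it lay within 2-fold, as it did for 97.8% of the brighter set. The 7 whose interval passed 1.5-fold were inhbb, smad6a, id3, nog3, bmpr1ab, and a probe set each of fgfr2 and tgfbr2b. Among the 46 dimmer members 15 intervals lay within 2-fold, which makes 56 of all 87 (64.4%) against 69% of all tested probe sets. When the brighter probe sets were fitted alone, inhbb, bmp2b and smad6a had an unadjusted p under 0.05, which is 3 of 41 (7.32%) against 6.66% of that set, and adjusted p in limma of 0.628, 0.730 and 0.733; 0.0774% of that set had an adjusted p under 0.05, with 0 members among them.

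**Figure D1:**
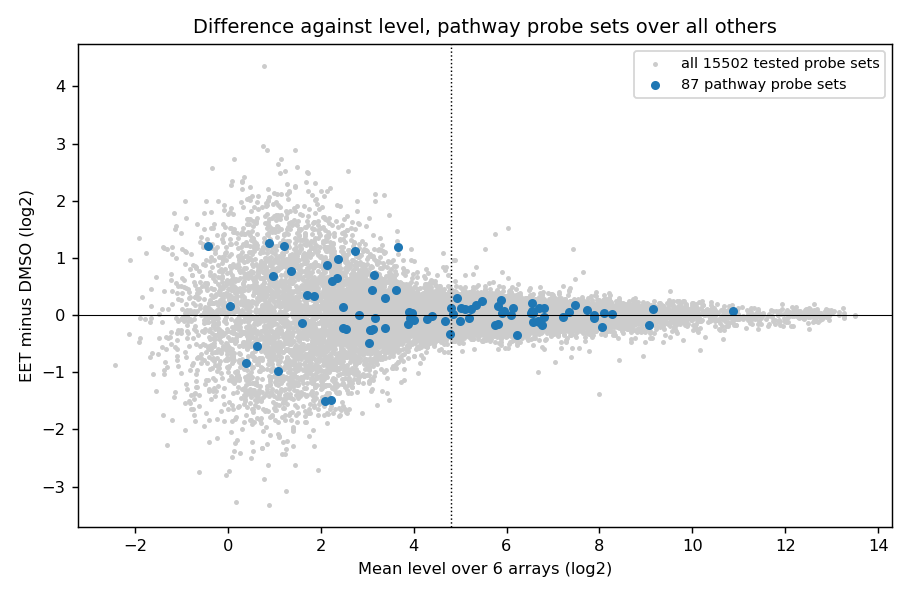
Difference EET minus DMSO (log2, y axis) against the mean level over the 6 arrays (log2, x axis) for all 15502 tested probe sets in grey and the 87 pathway probe sets in blue. The dotted line is the median level of 4.81. The blue points right of it lie between -0.34 and 0.29, while those left of it spread from -1.51 to 1.26.

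**Figure D2:**
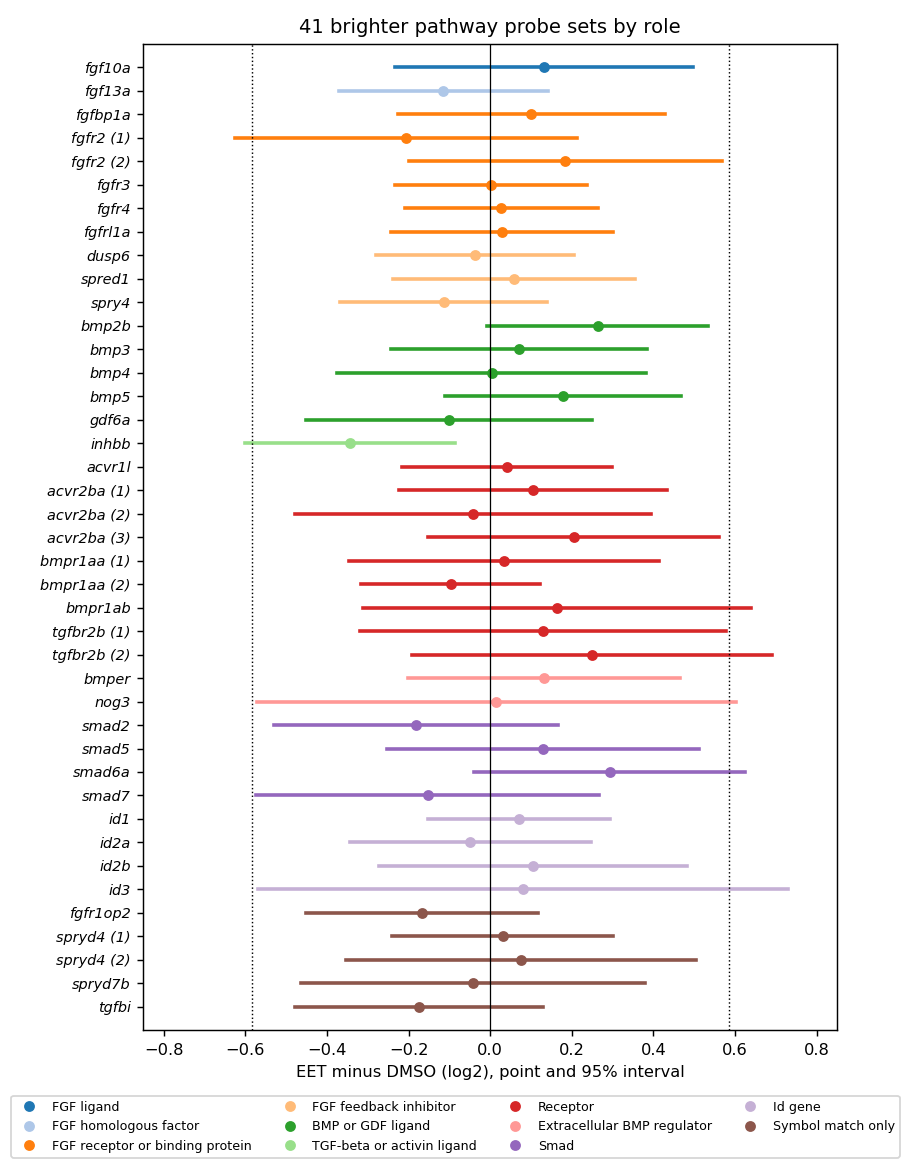
Difference EET minus DMSO (log2) with its 95% interval from limma for the 41 brighter pathway probe sets, grouped by role, with numbers after genes that have several. Dotted lines mark 1.5-fold. Of the 41 intervals, 34 lie between the dotted lines, and inhbb has the one interval that does not reach 0.

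In 7 of the 87 members (8.05%) the 3 EET levels did not overlap the 3 DMSO levels, against 11.7% of all tested probe sets, with 5 of them higher in EET (5.81% of all tested probe sets) and 2 lower (5.91%). Among the 41 brighter members there were 4, or 9.76%, against 13% of all brighter probe sets. The gene inhbb encodes the beta B subunit that forms activin B. Its levels were 6.15, 5.93 and 6.08 in EET embryos, against 6.36, 6.42 and 6.41 in DMSO embryos. All EET arrays were below all DMSO arrays, by a difference of -0.34 ± 0.10 (SE), or 1.27-fold, with an unadjusted p of 0.0178 and an adjusted p of 0.930 in limma. In the replicate 3 pair the difference was -0.34, and in the other 4 arrays -0.35. With log2(2^value + 32) it was -0.24.

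The ligand gene bmp2b, which patterns the ventral side of the early embryo, read 5.92, 6.16 and 5.98 in EET embryos, against 5.72, 5.74 and 5.81 in DMSO embryos. The groups did not overlap, at a difference of 0.26 ± 0.11 (adjusted p = 0.930, limma), or 0.17 with log2(2^value + 32), which shrinks differences at low levels. For bmp5, another BMP ligand gene, levels were 7.61, 7.56 and 7.52 with EET and 7.52, 7.43 and 7.22 with DMSO, and the difference was 0.18 ± 0.12. The groups touch at the second decimal, and the difference was 0.12 without the replicate 3 arrays. By replicate number it was 0.096, 0.14 and 0.30. One probe set of bmpr1aa, a type I BMP receptor gene, was lower in every EET array, at 6.58, 6.66 and 6.64 against 6.74, 6.71 and 6.72 in DMSO. That difference was -0.097 ± 0.087, and a brighter probe set of the same gene gave 0.034 ± 0.151.

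The other 3 were dim. A probe set of spry2 read 1.39, 0.96 and 1.59 in EET embryos, against 0.48, 0.54 and 0.85 in DMSO embryos, a difference of 0.69 ± 0.21 (unadjusted p = 0.0179, adjusted p = 0.930, limma). With trended robust variances the SE of this difference was 0.70 and the unadjusted p 0.349 (limma). The other probe sets of the gene gave -0.063 ± 0.202 and -0.042 ± 0.435, and the difference of 0.69 was 0.041 on log2(2^value + 32). For a probe set of smad5, which encodes a BMP-activated Smad, EET levels were 1.25, 0.09 and -0.77, against -1.03, -1.10 and -0.93 in DMSO. Its difference of 1.21 ± 0.51 was 0.16 in the replicate 3 pair, and the bright probe set of smad5 gave 0.13 ± 0.15. The activin receptor gene acvr1ba read 3.20, 3.28 and 3.44 in EET, against 2.71, 2.86 and 0.98 in DMSO, where replicate 3 was far below the others. Its difference of 1.13 ± 0.53 was 0.46 without the replicate 3 arrays.

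An RNA quality measure also lay apart between the groups. On the actin controls, the 3' probe set exceeded the 5' one by 2.30, 2.17 and 2.14 in EET arrays, against 2.01, 1.79 and 1.74 in DMSO arrays. For GAPDH the ranges overlapped, at 0.94 to 1.27 in EET and 0.88 to 1.02 in DMSO. Its part in the values of inhbb, bmp2b and the other members was not tested.

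**Figure D3:**
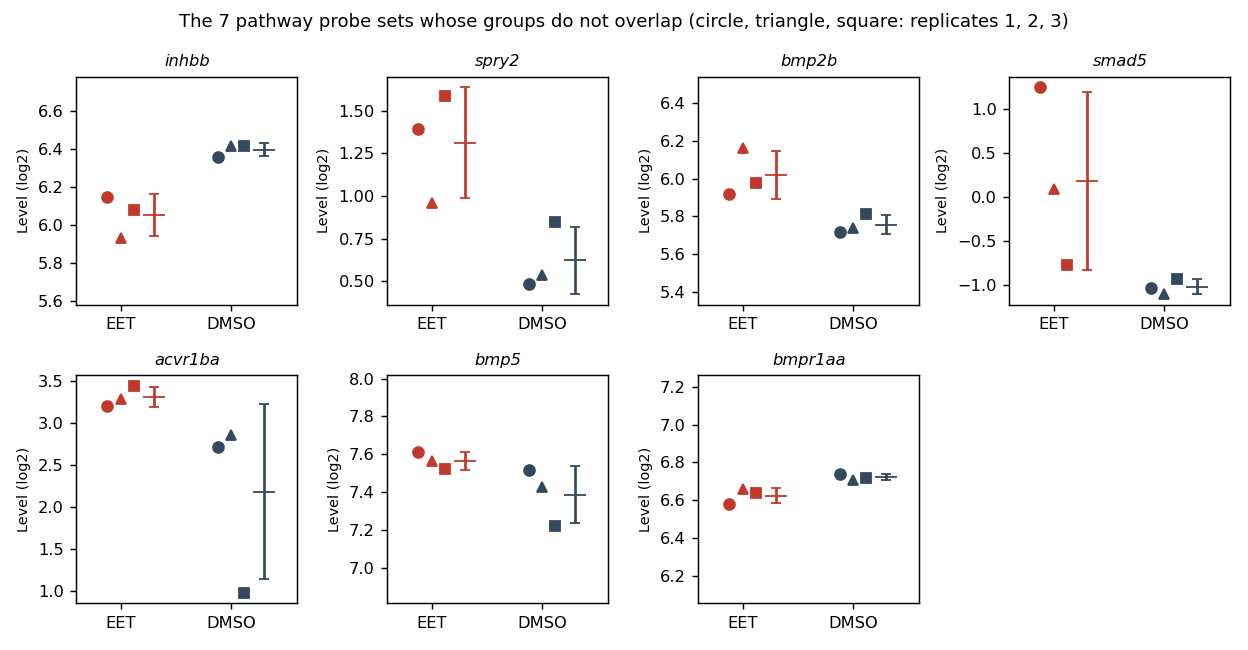
Level (log2) on each array for the 7 pathway probe sets whose groups do not overlap, EET left and DMSO right in each panel. Circles, triangles and squares are replicates 1, 2 and 3, and the bars are mean ± SD (n = 3). The y axes differ between panels. The inhbb arrays lie between 5.93 and 6.15 in EET and between 6.36 and 6.42 in DMSO.

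Most FGF ligand genes were dim. Of 9 genes, each with 1 probe set, only fgf10a, a fin bud signal, was at or above the median level. It read 5.25, 4.83 and 5.18 in EET embryos and 5.04, 4.90 and 4.93 in DMSO embryos, and the groups overlapped (0.13 ± 0.15). For fgf8a, a signal of the midbrain-hindbrain boundary and the heart field, levels were 4.28, 4.38 and 4.15 in EET and 4.31, 4.46 and 4.22 in DMSO, a difference of -0.062 ± 0.118. Its 95% interval ran from -0.36 to 0.23, narrow for a probe set below the median level. The other 7 were much noisier. For fgf24, another fin bud ligand, the difference was 0.70 ± 0.59, and for the ear and hindbrain ligand fgf3 it was -0.50 ± 0.84, with EET levels of 3.36, 0.995 and 4.02. The paralogue fgf8b gave -0.25 ± 0.38, fgf4 0.88 ± 0.57, fgf18a -0.98 ± 0.63, fgf6a -0.25 ± 0.59 and fgf2 0.34 ± 0.75. Of the 9, 4 were higher and 5 lower in EET, and 0 had an unadjusted p under 0.05. For fgf3 the difference was 0.40 without EET replicate 2. The gene fgf13a encodes a factor that in mammals stays inside the cell and binds sodium channels. It gave -0.12 ± 0.10.

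Receptor genes fgfr3 and fgfr4 had small SDs between replicates. The level of fgfr3 was 7.90, 7.84 and 7.92 in EET embryos, against 7.83, 7.87 and 7.96 in DMSO embryos. For fgfr4 it was 8.29, 8.21 and 8.37 in EET and 8.30, 8.26 and 8.22 in DMSO. Both groups overlapped for each gene, with differences of 0.0011 ± 0.0937 for fgfr3 and 0.027 ± 0.094 for fgfr4, and 95% intervals from -0.23 to 0.24 and from -0.21 to 0.26. The 2 probe sets of fgfr2 moved apart in EET replicate 3. The brighter read 8.21, 8.03 and 7.64 in EET, against 8.21, 8.15 and 8.14 in DMSO (-0.21 ± 0.17), and the other 5.25, 5.34 and 5.73 in EET, against 5.29, 5.21 and 5.27 in DMSO (0.18 ± 0.15). Without the replicate 3 arrays these differences were -0.062 and 0.045. The single fgfr1a probe set was dim and gave 0.59 ± 0.77. The receptor-like gene fgfrl1a, whose product lacks the kinase domain, gave 0.029 ± 0.108, the FGF carrier gene fgfbp1a 0.10 ± 0.13, and the dim fgfbp2a 0.78 ± 1.17.

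Feedback inhibitors are genes whose transcripts follow FGF signalling. The level of dusp6 was 7.22, 7.21 and 7.14 in EET embryos, against 7.28, 7.27 and 7.13 in DMSO embryos. For spry4 the levels were 6.71, 6.67 and 6.55 in EET and 6.81, 6.67 and 6.80 in DMSO. The groups overlapped for both, at -0.038 ± 0.097 for dusp6 (95% interval -0.28 to 0.20) and -0.11 ± 0.10 for spry4 (95% interval -0.37 to 0.14). The brightest of the 4 spred1 probe sets read 7.24, 7.34 and 7.51 in EET and 7.40, 7.31 and 7.21 in DMSO, a difference of 0.058 ± 0.118. The dimmer probe sets of spred1 gave -1.48 ± 0.99, 0.36 ± 0.82 and 0.17 ± 1.02, and that of dusp6 gave 0.30 ± 0.36. Over the 10 probe sets of these 4 genes, 5 were higher and 5 lower in EET.

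**Figure D4:**
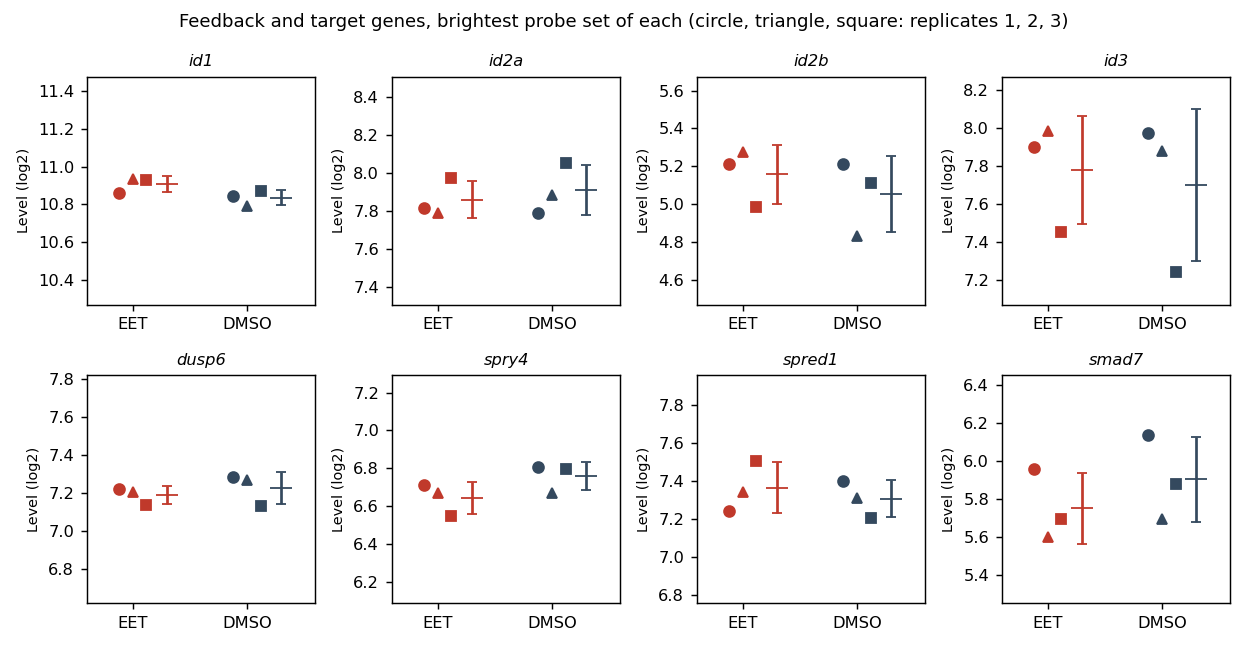
Level (log2) on each array for the brightest probe set of the 4 Id genes, of dusp6, spry4 and spred1, and of smad7, EET left and DMSO right. Circles, triangles and squares are replicates 1, 2 and 3, and the bars are mean ± SD (n = 3). The y axes differ between panels. Replicate 3 of id3 lies below the other arrays in both groups, at 7.45 in EET and 7.24 in DMSO.

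Among BMP and GDF ligands, 5 of 16 probe sets were bright. Beside bmp2b and bmp5, bmp4, a ligand of the heart, eye and fins, read 5.81, 6.24 and 6.21 in EET embryos and 6.02, 6.18 and 6.06 in DMSO embryos. Its groups overlapped, at a difference of 0.0037 ± 0.1506. The level of gdf6a, a signal of the dorsal eye, was 4.87, 5.15 and 4.84 in EET and 5.21, 5.04 and 4.92 in DMSO (-0.10 ± 0.14), and bmp3 gave 0.070 ± 0.125. The other 11 probe sets were dim. For bmp2a EET levels were 3.83, 4.62 and 4.37, against 1.15, 3.72 and 4.35 in DMSO, where replicate 1 was far below the others. Its difference was 1.20 ± 0.87, and 0.020 in the replicate 3 pair. The gene bmp7a, the partner of bmp2b in early ventral patterning, read 2.94, 3.06 and 2.61 in EET, against -0.15, 3.61 and 2.22 in DMSO, where replicate 1 was again low (0.98 ± 0.95). The nodal co-ligand gene gdf3 gave 0.64 ± 0.68, or 0.041 without DMSO replicate 1, gdf6b 0.15 ± 0.51, gdf7 -0.13 ± 0.86 and bmp6 -0.26 ± 0.52. The 3 probe sets of bmp8a gave 0.0031 to 1.26, and the 2 of bmp15, an oocyte factor gene, lay on both sides of 0, at 1.20 ± 0.76 and -0.84 ± 0.85. Over the 16 probe sets 12 were higher and 4 lower, where 49.5% of all tested probe sets were higher. Among the 5 bright ones 4 were higher and 1 lower. The median difference of the 16 was 0.16 (all tested probe sets, -0.0023), and 0 had an unadjusted p under 0.05.

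Of the activin and TGF-beta ligands beside inhbb, inhbaa, the gene of the activin A subunit, had a pair of dim probe sets. The first gave -1.51 ± 0.76, with EET levels of 2.68, -0.22 and 1.58 against 2.42, 3.14 and 2.998 in DMSO, which overlapped through EET replicate 1. The second gave -0.22 ± 0.67, and 0.17 without EET replicate 1. The single tgfb1a probe set read 3.36, 2.94 and 3.49 in EET and 3.21, 3.43 and 3.85 in DMSO (-0.23 ± 0.23). By group mean 0 of the 4 probe sets of this role were higher in EET, where 49.5% of all tested probe sets were. One of the 4, inhbb, had an unadjusted p under 0.05 and was lower, as were 2.61% of all tested probe sets.

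Receptors of the BMP and TGF-beta families had 13 probe sets, 9 of them bright. The BMP type I receptor gene acvr1l read 6.44, 6.58 and 6.65 in EET embryos and 6.48, 6.57 and 6.49 in DMSO embryos, a difference of 0.041 ± 0.102 with a 95% interval from -0.22 to 0.30. The brightest of the 3 probe sets of acvr2ba, a type II activin and BMP receptor gene, read 9.09, 9.37 and 9.18 in EET and 8.997, 9.07 and 9.27 in DMSO, and the groups overlapped. That probe set, of a kind that may match more than 1 transcript, gave 0.11 ± 0.13, and the others 0.20 ± 0.14 and -0.042 ± 0.173. The type II TGF-beta receptor gene tgfbr2b gave 0.13 ± 0.18 and 0.25 ± 0.18, the second 0.079 without the replicate 3 arrays. The type I receptor gene bmpr1ab gave 0.16 ± 0.19 and bmpr1ba -0.0080 ± 0.2277. The endothelial type I receptor gene acvrl1, below the median level, gave 0.040 ± 0.178, and the dimmest bmpr1aa probe set -0.042 ± 0.297.

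Of the 5 secreted BMP regulators, 0 had an unadjusted p under 0.05. The gene bmper, whose product binds BMPs outside the cell, read 6.29, 6.01 and 6.33 in EET embryos and 5.95, 6.13 and 6.16 in DMSO embryos (0.13 ± 0.13). The Noggin genes gave 0.13 ± 0.18 for nog1, 0.050 ± 0.205 for nog2 and 0.015 ± 0.234 for nog3. For nog3 the EET levels of 4.85, 4.84 and 4.88 were tight, while those in DMSO were 4.88, 5.26 and 4.38. The Chordin gene chrd was dim and gave -0.26 ± 0.20.

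Of the Smads, the inhibitory smad6a read 5.16, 5.20 and 4.91 in EET embryos, against 4.79, 4.93 and 4.67 in DMSO embryos. The groups overlapped by 1 array, EET replicate 3, which lay just below DMSO replicate 2. The difference was 0.29 ± 0.13 (95% interval -0.039 to 0.62, adjusted p = 0.930, limma), and 0.14 with log2(2^value + 32). In same-numbered arrays it was 0.37, 0.27 and 0.24 for replicates 1, 2 and 3. The other inhibitory gene, smad7, read 5.96, 5.60 and 5.70 in EET and 6.14, 5.69 and 5.88 in DMSO, and gave -0.15 ± 0.17, on the other side of 0, with -0.18, -0.097 and -0.18 in same-numbered arrays. The bright smad5 probe set read 6.96, 6.59 and 6.76 in EET and 6.69, 6.44 and 6.78 in DMSO. The dim smad1, also BMP-activated, gave 0.44 ± 0.35, or 0.080 without DMSO replicate 1. Of the Smads activated by activin, nodal and TGF-beta, smad2 gave -0.18 ± 0.14 at its bright and -0.53 ± 0.25 at its dim probe set, smad3a -0.10 ± 0.19 and smad3b -0.021 ± 0.167. Over 9 Smad probe sets 4 were higher and 5 lower.

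Id genes encode helix-loop-helix proteins that block differentiation factors and are standard readouts of BMP signalling. The level of id1 was 10.86, 10.93 and 10.93 in EET embryos, against 10.84, 10.79 and 10.87 in DMSO embryos, a difference of 0.071 ± 0.089 with a 95% interval from -0.15 to 0.29. The groups overlapped slightly. Over 16 alternative fits, some with arrays left out, the difference stayed between 0.049 and 0.095. Both ends of this range came from leaving out 1 array. For id2a levels were 7.82, 7.79 and 7.98 in EET and 7.79, 7.89 and 8.05 in DMSO (-0.049 ± 0.118). The brighter id2b probe set read 5.21, 5.28 and 4.98 in EET and 5.21, 4.83 and 5.11 in DMSO (0.10 ± 0.15), and the other gave -0.093 ± 0.287. For id3 the arrays split by replicate rather than by treatment, at 7.90, 7.98 and 7.45 in EET and 7.98, 7.88 and 7.24 in DMSO. Its difference of 0.081 ± 0.258 had a 95% interval from -0.57 to 0.73, was 0.015 without the replicate 3 arrays, and ran from -0.15 to 0.24 with 1 array left out.

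Symbol alone brought in 6 genes, with 7 probe sets, that are not signalling components of these pathways. They are the kinase gene bmp2k, fgfr1op2, which is named after a fusion partner of a human FGF receptor, the SPRY domain genes spryd4, spryd7a and spryd7b, which are unrelated to Sprouty, and tgfbi, an extracellular matrix gene. Of them tgfbi read 9.17, 8.88 and 8.90 in EET embryos and 9.09, 9.19 and 9.21 in DMSO embryos (-0.17 ± 0.12). The others lay between -0.33 and 0.075. Without these, 61 genes and 80 probe sets were left, with a median difference of 0.040 and the same 2 at an unadjusted p under 0.05. The gene fgf13a, described above as acting inside the cell in mammals, is still counted among the 61.

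Several probe sets were available for 14 of the 67 genes, and in 8 of these they lay on both sides of 0. In 2 of the 8, acvr2ba and fgfr2, all probe sets were bright. Direction was shared in bmp8a, inhbaa, smad2, smad5, spryd4 and tgfbr2b.

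Some members separated the arrays by replicate number and not by treatment. Both replicate 3 arrays lay above or below all other arrays in 15 of the 87 members (17.2%), against 20.9% of all tested probe sets, and in 7 of the 41 brighter members (17.1%), against 23.8% of all brighter probe sets. Besides id3, which was lower there by a mean of 0.59 on the log2 scale (-0.59), these were dusp6, the brightest bmpr1aa probe set, id2a, fgfr3, and a probe set each of acvr2ba and spryd4. The sign of the difference between EET and DMSO was compared between the replicate 3 pair and the other 4 arrays. It was the same in 24 of the 41 brighter members (58.5%) and 23 of the 46 dimmer ones (50%). The share over all tested probe sets was not computed. For inhbb and bmp2b, whose groups do not overlap, the sign had to be the same in both. Their differences were -0.34 and 0.16 in the replicate 3 pair and -0.35 and 0.31 in the other arrays.

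**Figure D5:**
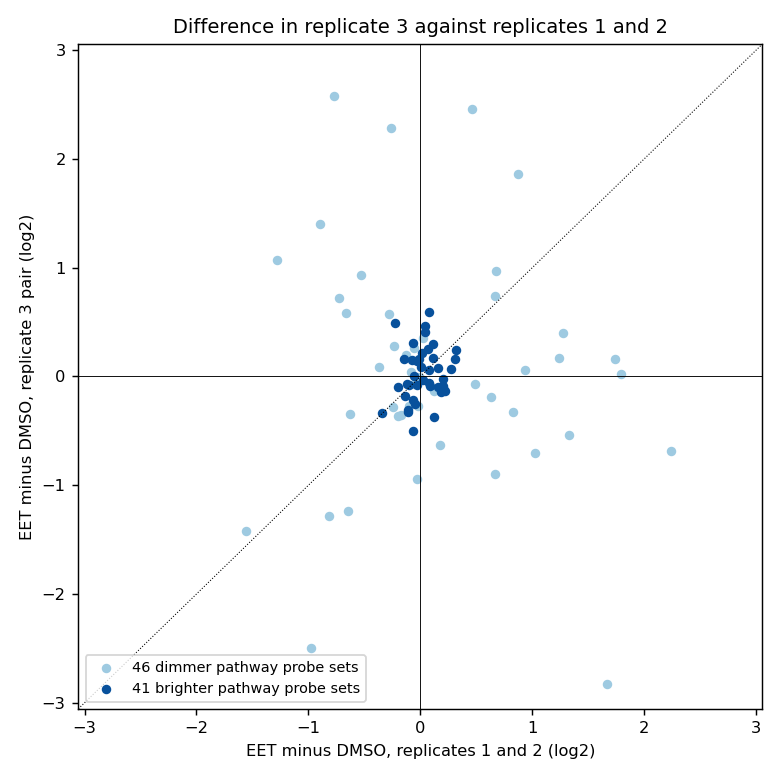
Difference EET minus DMSO (log2) in the replicate 3 pair (y axis) against that in replicates 1 and 2 (x axis) for the 41 brighter (dark) and 46 dimmer (light) pathway probe sets. The dotted line marks equal values. The brighter points lie between -0.35 and 0.32 on the x axis and between -0.50 and 0.59 on the y axis, and 24 of the 41 have the same sign on both.

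Other genes of the same pathways were taken from lists of symbols, older names included. These lists were chosen with earlier results of these data known, so their counts and shares are a description only. On the FGF and MAPK side 13 genes with 19 probe sets were measured. At an unadjusted p under 0.05, 2 of the 19 were higher in EET and 0 lower, against 2.66% and 2.61% of all tested probe sets, and 0 passed after adjustment. By group mean 10 of the 19 were higher and 9 lower, and of the 17 brighter ones 8 were higher and 9 lower. The groups did not overlap in 4 of the 19, 3 higher and 1 lower, against 11.7% of all tested probe sets. The gene etv4, an ETS factor induced by FGF signals, read 5.33, 5.36 and 5.33 in EET embryos, against 5.12, 5.06 and 4.91 in DMSO embryos. All EET arrays were above all DMSO arrays, at 0.31 ± 0.10 (adjusted p = 0.930, limma). The ERK kinase gene map2k1 read 5.81, 5.85 and 5.83 in EET, against 5.46, 5.33 and 5.60 in DMSO, also without overlap (0.37 ± 0.11, adjusted p = 0.930, limma). With log2(2^value + 32) these differences were 0.17 and 0.22. The lower one was a probe set of the adaptor gene grb2a, at 5.22, 5.33 and 5.30 in EET and 5.60, 5.54 and 5.33 in DMSO (-0.21 ± 0.11). Its groups touch at the second decimal, and another grb2a probe set gave 0.19 ± 0.23. The FGF feedback inhibitor gene il17rd, at 5.84, 5.89 and 5.87 in EET and 5.70, 5.65 and 5.66 in DMSO, gave 0.196 ± 0.086, and 0.12 with log2(2^value + 32). The other ETS genes gave -0.13 ± 0.14 for etv5b and 0.029 ± 0.112 and 0.051 ± 0.394 for etv5a.

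On the BMP and TGF-beta side 36 genes with 43 probe sets were measured. At an unadjusted p under 0.05, 5 of the 43 were higher in EET and 0 lower, against 2.66% and 2.61% of all tested probe sets, and 0 passed after adjustment. All 5 were below the median level, and both probe sets of twsg1a are among them. By group mean 24 of the 43 were higher and 19 lower, where 49.5% of all tested probe sets were higher. The groups did not overlap in 6 of the 43, 6 higher and 0 lower, against 11.7% of all tested probe sets. Of the 17 brighter ones 7 were higher and 10 lower, at a median difference of -0.033. The gene ved, a repressor downstream of BMP in the gastrula, read 3.48, 4.54 and 3.51 in EET embryos, against 1.56, 2.04 and 0.36 in DMSO embryos (2.52 ± 0.53, adjusted p = 0.667, limma). The related vent read 0.57, 1.06 and 1.57 in EET, against -0.46, -0.63 and 0.01 in DMSO (1.43 ± 0.31, adjusted p = 0.686, limma). A second probe set of vent lay on the other side, at -0.54 ± 0.93, and the related vox, above the median level, gave 0.25 ± 0.13. For twsg1a, which encodes a secreted BMP-binding protein, one probe set read 2.41, 1.21 and 2.58 in EET and 0.27, 0.11 and 0.15 in DMSO. It gave 1.89 ± 0.38 (adjusted p = 0.645, limma, and 0.0991 without EET replicate 2, the lowest over 14 alternatives), and the brighter one 0.39 ± 0.14. The BMP target gene szl, a feedback inhibitor, gave 1.59 ± 0.55, with EET levels of 0.32, 1.48 and -0.30 against -0.53, -1.76 and -0.97 in DMSO, and 0.67 in the replicate 3 pair. These low levels are not known to be above background. With log2(2^value + 32) the differences were 0.43 for ved, 0.060 for vent, 0.14 and 0.17 for twsg1a and 0.048 for szl. The BMP decoy receptor gene bambia, above the median level, gave -0.086 ± 0.120. The activin-binding gene fsta gave 0.28 ± 0.16 at its brighter probe set and -0.16 ± 0.49 at its dim one.

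Array medians lay between 4.81 and 4.82, and any pair of arrays had a correlation of 0.943 to 0.957 over the probe sets. Marker transcripts of the main embryonic tissues were bright in both groups, among them mylpfa of skeletal muscle (12.5 in EET, 12.5 in DMSO), myl7 of heart muscle (8.10 in EET, 8.04 in DMSO) and elavl3 of neurons (9.43 in EET, 9.61 in DMSO). The germ line gene ddx4 was dim, at 2.55 in EET and 3.25 in DMSO. The number of arrays limits the precision of every value.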

How the data were processed

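The deposited log2 values come from 6 arrays, with biotin-labelled RNA (6 µg of total RNA, per the labels' protocols). Background correction, summary and scaling by the authors are not given here by any source. The base was settled from the values: read as a natural log, the highest, 13.63, would exceed the 65535 of a 16-bit scanner. Of 15617 probe sets 115 controls were left out. Genes were named from the platform annotation. Its build is not stated, hence coordinates are left out, and sequences were not used. All 87 members matched a RefSeq table of the GRCz12tu assembly by Entrez identifier, with 0 symbols changed.

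EET was tested against DMSO in R 4.3.3 by 2-sided limma 3.58.1, without covariates, adjusted by Benjamini-Hochberg over all 15502 probe sets, with calls at an adjusted p under 0.05. Called brighter were the 7751 probe sets at or above the median level. The procedure was tested on simulated data with changes of 2-fold or more, so its recovery of smaller changes is not known. The members, the lists and the replicate 3 alternatives were chosen with earlier results of these data known. Genes were named if they had an unadjusted p under 0.05, were the brightest of a role, or stood in a fixed set. The remaining members are given for completeness. Among the listed genes outside the members, vox, grb2a, ndr1, spaw, lft2 and msx2a met none of these conditions and were added. The fit was repeated after centring arrays on their medians or quantile normalisation, without dim probe sets, on log2(2^value + 32), with trended robust variances or weighted arrays, with a replicate block, with replicate 3 as a batch or left out, without each array in turn, at a looser threshold, and with probe sets merged per gene in 2 ways.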

Additional observations from a re-analysis of the deposited data

How the results depend on the processing

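No member was called at an adjusted p under 0.05 in any of 16 alternative fits or at 0.10; the smallest adjusted p of a member was 0.628 to 0.996 over these fits. The count of 2 at an unadjusted p under 0.05 was 4 with array weights and 4 in the fit that had replicate numbers as a block. It was 3 with replicate 3 as a batch term and 1 to 4 with 1 array left out. In this order, the shares of members were 4.6%, 4.6%, 3.45% and 1.15% to 4.6%. Those of all probe sets were 6.64%, 5.37%, 6% and 4.35% to 6.35%. The count of 7 whose groups do not overlap changed where fewer members or arrays were used. It was 4 of 64 members without the dimmest 25%, against 12.4% of all probe sets. Without probe sets below the median level it was 4 of 41, against 13%. The count was 25 without both replicate 3 arrays and 12 to 26 with 1 array left out. There fewer arrays leave less to overlap (36.4% and 19.7% to 24.3% of all probe sets). The median of 0.031 was -0.011 without both replicate 3 arrays, and -0.0026 to 0.048 with 1 array left out; the lowest was without EET replicate 3, and without DMSO replicate 3 it was 0.0083. The differences of 59 named probe sets moved by less than the SD between replicates in 898 of 911 cases. Many of these cases could not have moved further. Leaving out dim probe sets, trended robust variances, a replicate block or a batch term leaves the difference of a tested probe set as it was. Leaving out 1 array of 3 cannot shift it by that SD. The 898 is thus no measure of stability. Of the 59, 23 changed sign under at least 1 alternative.

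Between arrays that share a replicate number, deviations from the group means had correlations of 0.042, 0.056 and 0.15 when all probe sets were used, not all over the limit of 0.1 set for taking numbers as pairs, and of 0.18, 0.24 and 0.55 among the brighter ones, all over it. Whether the numbers pair the samples is therefore not settled. With the replicate block the smallest adjusted p of a member was 0.842, so 0 members were called there too. The median SD between replicates was 0.729 among the 46 dimmer members and 0.145 among the 41 brighter ones.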
